A study of Mus musculus with 14 samples.

Results

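The Rab GTPases are small membrane-bound switches, and 54 of the 19215 genes measured in mouse spinal cord carried a Rab symbol. They were chosen by name alone, as the letters Rab followed by a number, with or without a letter from a to d and a further digit. A cassette exon is one that is either kept in or skipped from the spliced RNA, and 28 of the 13189 cassette exon records lay in 20 of these 54 genes. The RNA-seq data came from whole spinal cord (WSC) of 1 male and 1 female mouse aged 12 weeks. Both carried Tg(SOD1)2Gur/J, a transgene for wild-type human SOD1, on a mixed B6/SJL background, so no RNA-seq library came from a mouse without the transgene. The other readout was NOVA CLIP (12 libraries), which sequences short RNA fragments, called tags, that were crosslinked to the neuronal RNA-binding protein NOVA. The 8 MN libraries came from pooled spinal cords of hemizygous Chat:GFP-Nova mice, 4 from line #6 and 4 from line #17, in which the Chat promoter drove GFP-tagged NOVA2 in cholinergic cells, motoneurons included. The 4 WSC CLIP libraries came from wild-type mice, and their tags were those of the animals' own NOVA proteins. All CLIP mice were C57BL/6 and 3 months old. MN and WSC libraries therefore differed in the cells, in the NOVA protein and in the antibody at once, and these cannot be told apart.

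A Rab protein is active with GTP bound and inactive with GDP bound. Guanine nucleotide exchange factors (GEFs) load it with GTP on a membrane, effectors such as tethers and motor adaptors read the active form, GTPase-activating proteins (GAPs) switch it off, and GDP dissociation inhibitors (GDIs) carry the inactive form through the cytosol. Each Rab marks its own compartments: Rab1 and Rab2 act between the ER and the Golgi, Rab3 and Rab27 in regulated exocytosis, Rab5 on early endosomes, Rab4 and Rab11 in recycling, and Rab7 on late endosomes and lysosomes. In motoneurons, whose axons are very long, Rab5 and Rab7 are known for their part in the transport of signalling endosomes to the cell body.

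The RNA-seq libraries held 72006019 (male) and 65625173 (female) reads on genes, of which 424327 and 394750 were on Rab genes. Markers of neurons and astrocytes were high in both libraries, with Snap25 at 2029 and 2084 RPKM (reads scaled to exon length and library size) and Gfap at 477 and 523, while none of the 4 skeletal muscle markers passed a mean of 0.587 RPKM. The MN libraries held 65961 to 871804 unique tags and the WSC libraries 2213104 to 6095995, with 7115 and 80661 tags on Rab genes in all, so that MN values carry the larger counting error.

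Most Rab genes were expressed in spinal cord. A mean of at least 1 RPKM was reached by 50 of the 54, against 62.1% of all genes, and 34 reached 10 RPKM. The median of the 50 was 22.4 RPKM, and that of all genes with a mean of at least 1 was 10.3. The other 4 were Rab20 (0.231 RPKM male, 0.317 female), Rab25 (0.275 and 0.0575), Rab19 (0 and 1 read) and Rab17, which was listed at 0 reads in both libraries. Rab17 and Rab25 are known as Rabs of epithelial cells. RPKM values below are given as male, then female.

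Rab3a, which docks and primes synaptic vesicles, had the highest level of the family, at 429 and 397 RPKM (mean 413 ± 22.6, SD, n = 2), and ranked 72 among all genes. Next came the Golgi Rabs Rab6 at 201 and 202 RPKM and Rab6b, its neuronal relative, at 174 and 172. Rab2a, of ER to Golgi traffic, followed at 131 and 151 RPKM. These 4 genes kept this order in both libraries with no overlap of their values. The next 8 genes had means from 64.0 to 91.8 RPKM. The values of the first 7 of these overlapped from gene to gene, so that their order is not fixed by 2 libraries, and Rab1b was below the others in both. They were Rab7 (98.6 and 85.1 RPKM), Rab14 (90.3 and 91.1), Rab18 (79.5 and 91.4), Rab10 (76.5 and 94.1), Rab1 (76.1 and 88.5), Rab5c (84.8 and 79.3), Rab11a (69.0 and 85.6) and Rab1b (67.5 and 60.5).

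**Figure D1:**
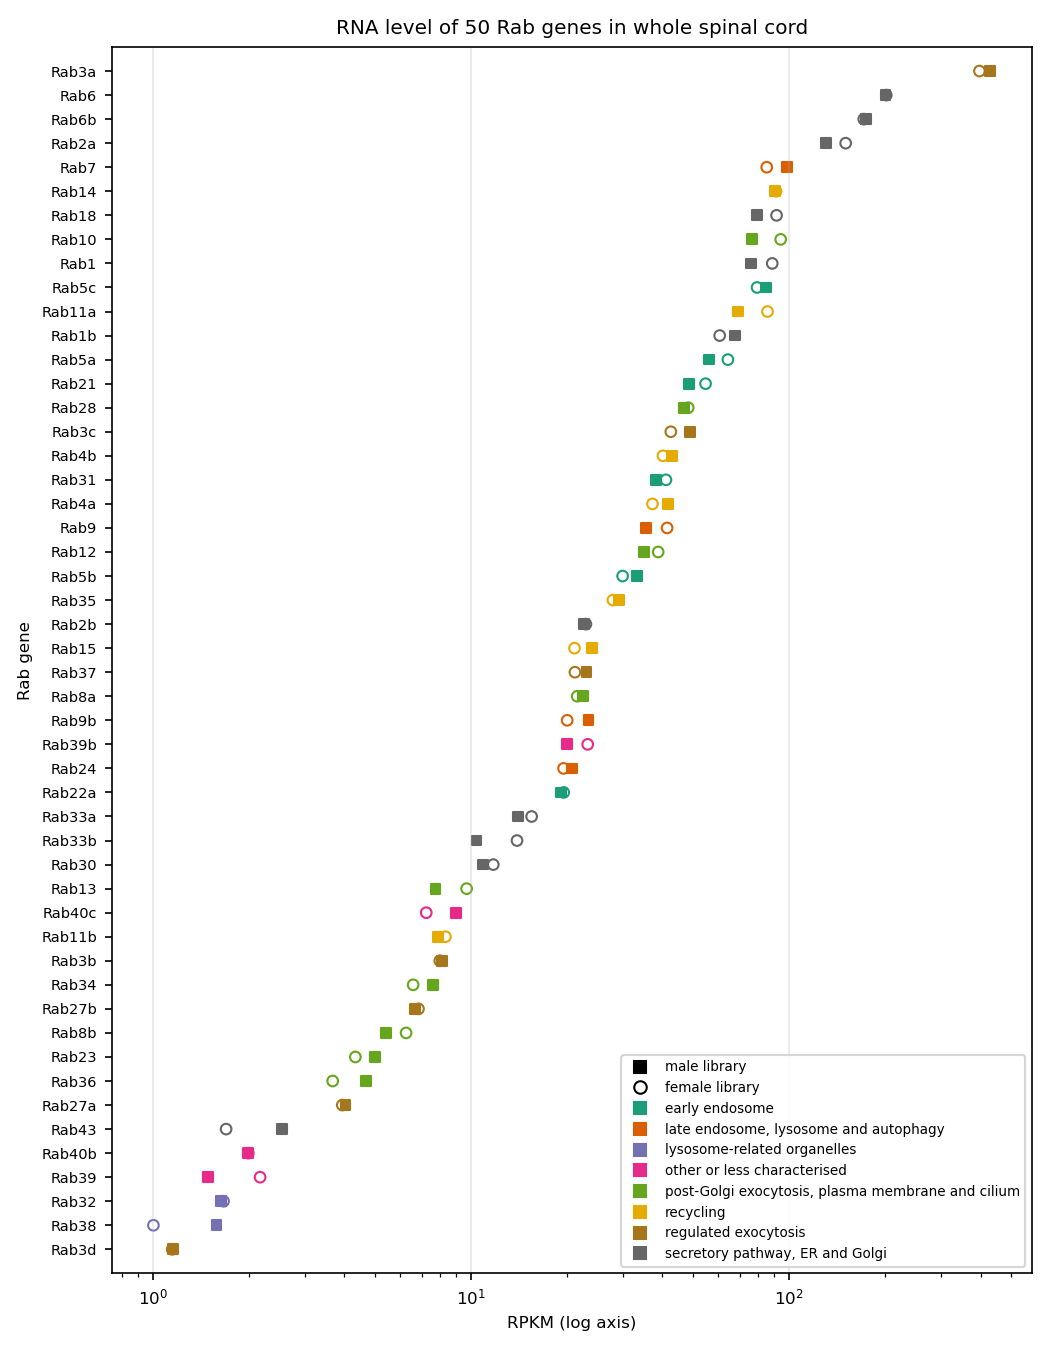
RNA level of the 50 Rab genes with a mean of at least 1 RPKM in whole spinal cord. The x axis is RPKM on a log scale, each row is a gene, filled squares are the male library, open circles the female library and colours the role lists. Rab3a stands apart at the top at 429 and 397 RPKM, and the lowest row, Rab3d, lies near 1.16 RPKM.

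Grouped by role, the 12 Rabs of the secretory pathway, ER and Golgi held the largest share of all Rab RPKM, 34.0% in the male and 35.4% in the female library, through Rab6, Rab6b and Rab2a. The 7 of regulated exocytosis held 22.4% and 20.5%. Most of that was Rab3a, and the next were Rab3c, its relative on synaptic vesicles, at 48.9 and 42.5 RPKM, and Rab37, known from secretory granules, at 23.1 and 21.2.

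The 8 recycling Rabs held 13.1% and 13.3% of the Rab RPKM, led by Rab14 and Rab11a and then by Rab4b, of fast recycling from early endosomes, at 42.8 and 40.2 RPKM. The 8 early endosome Rabs held 12.1% and 12.3%, and after Rab5c came Rab5a, of early endosome fusion, at 56.1 and 64.2 RPKM and Rab21, of integrin uptake, at 48.5 and 54.7. Of these 8, 6 reached a mean of 1 RPKM.

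The 9 Rabs of post-Golgi exocytosis, plasma membrane and cilium held 9.09% and 9.93%, and all 9 reached a mean of 1 RPKM. Below Rab10, of exocytic carriers, stood Rab28, known from cilia and from the photoreceptor disease cone-rod dystrophy, at 46.7 and 48.2 RPKM. Rab12, a substrate of the kinase LRRK2, had 34.9 and 38.8 RPKM.

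The 4 late endosome, lysosome and autophagy Rabs held 7.68% and 7.07%, with Rab7 followed by Rab9, of transport from late endosomes to the Golgi, at 35.4 and 41.4 RPKM and by Rab9b at 23.4 and 20.1. The 4 other or less characterised Rabs held 1.40% and 1.48%. They were led by Rab39b, a gene of intellectual disability and early parkinsonism in humans, at 20.04 and 23.3 RPKM. Rab40c, which recruits a ubiquitin ligase, had 9.0 and 7.24 RPKM, and its relative Rab40b 1.99 and 2.00.

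The lysosome-related organelle Rabs of pigment cells and platelets were lowest as a role, with 0.139% and 0.114% of the Rab RPKM. Rab32 had 1.64 and 1.67 RPKM and Rab38 1.59 and 1.00.

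Close relatives differed widely in level within some families and little within others. Rab3a made up 88.1% and 88.5% of the summed RPKM of its family, Rab3c 10.04% and 9.48%, Rab3b 1.67% and 1.78%, and Rab3d 0.238% and 0.257%. Rab11a held 89.7% and 91.1% of the Rab11 RPKM, Rab2a 85.3% and 86.8% of Rab2 and Rab39b 93.1% and 91.5% of Rab39. These families each had a single leading member in both libraries. Rab6 and Rab6b were close to even (53.5% and 54.1% for Rab6), as were Rab4b and Rab4a (50.6% and 51.9% for Rab4b). The 3 Rab5 genes kept the order Rab5c, Rab5a, Rab5b in both libraries, with Rab5c at 48.7% and 45.7%.

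Some of these levels depend on how a gene was measured. Exact copies elsewhere in the genome were found for 47.5% of the 74-nt windows (the trimmed read length) of the Rab5b transcript, 47.4% for Rab11b, 30.9% for Rab5a, 28.1% for Rab7 and 8.30% for Rab2a. In no other Rab transcript did this share pass 5.29% (Rab8b). Reads from such windows map ambiguously, and only unambiguous reads were kept. The exon length that the RPKM divides by was 2.30 times the GENCODE exon length for Rab11b and 1.80 times for Rab8b, but 0.273 times for Rab22a, 0.282 times for Rab3c, 0.432 times for Rab8a and 0.485 times for Rab7. The shares of Rab11b, Rab5b, Rab5a and Rab3c within their families are therefore uncertain. The same holds for the level and rank of Rab7, which has both limits, and for the levels of the other genes named in this paragraph.

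Few Rab genes differed between the male and the female library. On log2(RPKM + 0.1), 5 of the 50 were more than 25% higher in 1 library than in the other, against 15% of all genes with a mean of at least 1 RPKM. With 1 library of each sex the difference has no replicate check, so it is a difference of 2 libraries.

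In the female library Rab33b, a Golgi Rab that binds the autophagy protein Atg16l1, was higher, with 10.4 RPKM in the male and 14.0 in the female library (log2 difference 0.42). Rab39 was also higher there, with 1.49 and 2.17 RPKM (0.52). These were 2 of 50 Rabs, and 6.16% of all genes passed 25% in this direction.

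In the male library 3 Rabs were higher, against 8.86% of all genes. Rab36 had 4.69 RPKM in the male and 3.68 in the female library (log2 difference, female minus male, -0.34), Rab43, of ER to Golgi traffic, 2.54 and 1.70 (-0.55), and Rab38, of melanosome biogenesis, 1.59 and 1.00 (-0.61). Rab38 rested on 180 and 104 reads, and it was the only one of the 5 past 1.5-fold. With a pseudocount of 1 its log2 difference was -0.37, short of 1.5-fold, and Rab36 (-0.28) no longer passed 25%. The median log2 difference of the 50 Rabs was 0.0058 and that of all genes -0.0068.

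**Figure D2:**
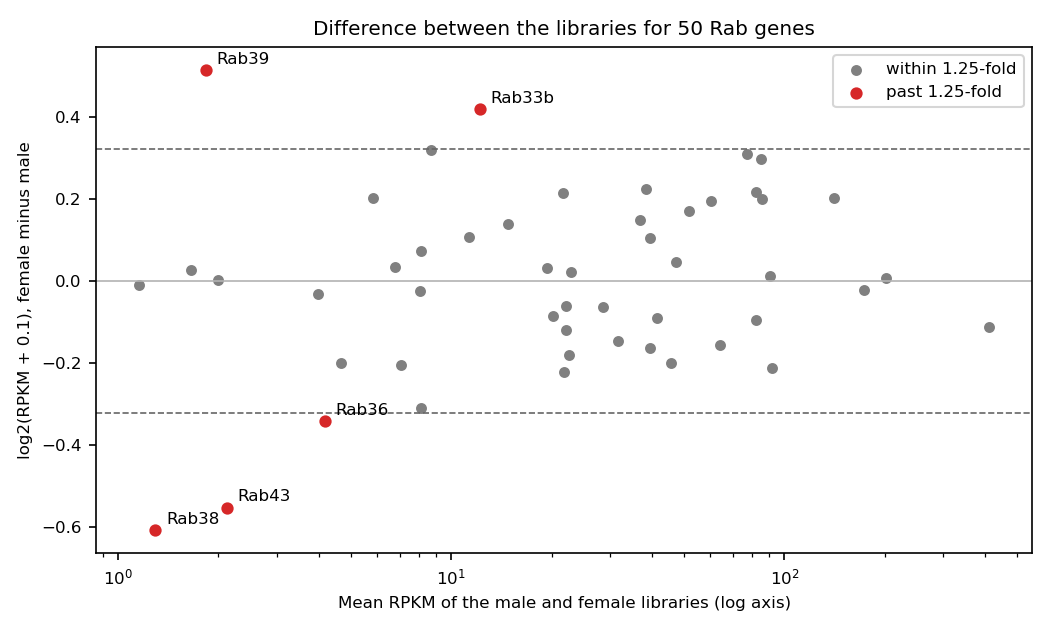
Difference between the 2 RNA-seq libraries for the 50 Rab genes with a mean of at least 1 RPKM. The x axis is the mean RPKM on a log scale and the y axis the log2(RPKM + 0.1) difference, female minus male; each point is a gene, and dashed lines mark 25% higher in either library. The 5 red points past the lines lie at low levels, the highest of them Rab33b at a mean of 12.2 RPKM.

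Cell type markers moved between the same libraries. The summed RPKM of the 6 motoneuron markers was 84.0 in the male and 116 in the female library, and 3 of the 5 with a mean of at least 1 RPKM were more than 25% higher in the female library (Slc5a7, the choline transporter, 28.0 and 46.9 RPKM). The 4 endothelial markers summed to 17.3 and 12.4 RPKM, and 3 of the 4 were more than 25% higher in the male library. The part of these shifts in the Rab differences was not tested, and in bulk tissue fewer cells of a type and less RNA per cell cannot be told apart.

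Splicing of the Rab genes was close to all or none except in Rab28. The inclusion rate is the share of RNA that holds the exon, computed from the mean of both inclusion junctions and the skipping junction. With at least 10 junction reads in each library, 21 of the 28 records were covered. Of these, 14 had a mean rate above 95%, 5 were below 5%, and 2 lay between, which is 9.52% against 36.6% of all 9396 covered exons. Both of those were in Rab28 and neither length was a multiple of 3, so inclusion or skipping shifts the reading frame.

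The 5 exons below 5% were those of Rab14 (218 nt), Rab18 (73 nt), Rab40c (311 nt), Rab5c (150 nt) and Rab8b (141 nt). In Rab5c 0 inclusion reads stood against 483 and 428 skipping reads, and the Wilson 95% interval reached up to 0.789% in the male and 0.890% in the female library. In Rab40c the rates were 0% and 5.26%, from 46 and 18 skipping reads, with upper bounds of 7.71% and 24.6%. Reads within the Rab40c exon were 13 and 11, and with them counted as inclusion its rates were 22.03% and 41.9%. These sum exon reads and both junctions against the skipping junction without scaling to length. They are therefore not on the scale of the junction rates and run higher for a long exon. Of the 14 exons above 95%, 9 had a length that is a multiple of 3, and of the 5 below 5%, 2 did.

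The 14 exons above 95% ran from 54 to 213 nt. Rab1 (96 nt) had 99.4% and 99.6%, Rab14 (54 nt) 100% in both libraries and Rab15 (78 nt) 97.2% and 98.9%. The rate of the Rab11a 194-nt exon, 98.4% and 96.3%, rested on its downstream junction, with 238 and 258 reads, since the upstream junction had 3 and 0 reads beside 2 and 5 skipping reads. A second record of the Rab28 95-nt exon, with another downstream exon, is among the 14, and it had 0 downstream and 0 skipping reads, so its rate of 100% came from the upstream junction that it shares with the first record. Of the 28 records, 7 were not covered: both of Rab17 and 1 each of Rab25, Rab27a, Rab27b, Rab28 (179 nt) and Rab40c (179 nt).

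**Figure D3:**
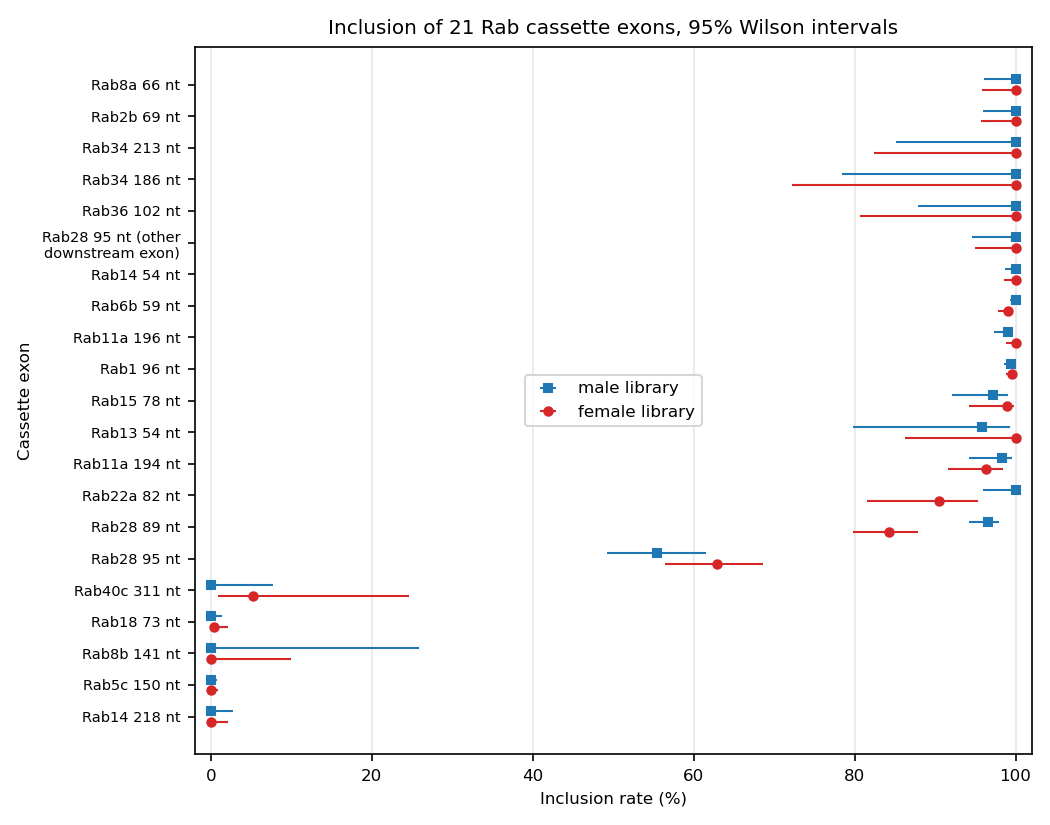
Inclusion rate of the 21 covered Rab cassette exons. The x axis is the inclusion rate in percent, each row is an exon, squares are the male and circles the female library, and bars are 95% Wilson intervals, which cover counting error only. The Rab28 95-nt exon is the only row near the middle, at 55.5% and 62.8%, and the Rab28 89-nt and Rab22a 82-nt exons are the rows where the library values differ most among those above 80%.

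The exons that carry these results are shown 5′ to 3′ on the strand of the gene (mm9, with coordinates from the deposited exon records), with the exon in capitals and 20 bases of the flanking intron in lower case. They are the 2 Rab28 exons between 5% and 95%. The Rab28 95-nt exon (chr5:42018226-42018320, minus strand) is printed up to the stop codon at its base 88, as chr5:42018231-42018340. The Rab28 89-nt exon lies at chr5:42089629-42089717 (minus strand, printed as chr5:42089609-42089737).
Rab28 95-nt exon: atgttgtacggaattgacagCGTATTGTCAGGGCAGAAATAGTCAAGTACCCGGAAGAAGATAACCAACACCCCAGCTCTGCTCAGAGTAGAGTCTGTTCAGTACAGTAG
Rab28 89-nt exon: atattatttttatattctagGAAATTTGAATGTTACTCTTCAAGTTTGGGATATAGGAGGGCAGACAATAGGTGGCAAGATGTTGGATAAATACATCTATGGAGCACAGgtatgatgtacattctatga

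The male library included the Rab28 95-nt exon at 55.5%, with a 95% Wilson interval from 49.2% to 61.5%, and the female library at 62.8% (56.5% to 68.6%), for a mean of 59.2% ± 5.21 (SD, n = 2). Its junctions held 134 and 140 reads against 110 skipping reads in the male library, and 144 and 157 against 89 in the female. The intervals overlapped, and Fisher's exact test over all covered exons gave an adjusted p of 0.375. The exon lies within an intron of the GENCODE annotation, where neither of its ends is annotated, and its introns end in ag and begin with gt.

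Both forms of this Rab28 RNA encode proteins of nearly equal length in the annotated frame. With the exon, the reading frame stops at base 88 of the exon, after 220 codons, and without it the frame stops at base 91 of the last exon, after 221 codons. The alternative thus lies at the C-terminal end, the end at which Rab proteins receive their lipid anchor.

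The Rab28 89-nt exon, an annotated coding exon, was included at 96.6% in the male library (94.2 to 98.0) and 84.2% in the female (79.8 to 87.9). Its skipping reads rose from 13 to 49 while its junctions held 557 and 173 reads in the male library and 412 and 111 in the female. The intervals did not overlap. Fisher's exact test, which compares inclusion and skipping counts of these 2 libraries and not of the sexes, gave an adjusted p of 6.9e-05. Its inclusion counts, 886 in the male and 726 in the female library, also held reads within the exon, unlike the rates and intervals. Upstream and downstream junctions were unequal in both libraries, and from the downstream junction alone the mean rate was 81.2% against 90.4% from both.

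The Rab22a 82-nt exon, also coding, was included at 100% in the male library (96.0 to 100) and 90.5% in the female (81.5 to 95.3). Rab22a acts between early and recycling endosomes. The call rested on 0 skipping reads in the male and 7 in the female library, with an adjusted p of 0.081 by Fisher's exact test.

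These were the 2 calls among 21 covered Rab exons, at a false discovery rate (FDR) of at most 0.1, against 4.26% of all covered exons. From junction reads alone, or at an FDR of at most 0.01, 1 call was left, the Rab28 89-nt exon. Skipping either called exon moves the stop codon upstream of the last exon: the frame then ends after 63 codons in Rab28, against 221 with the exon, and after 68 in Rab22a, against 194. NOVA tags within 400 nt of these exons were few, with 9 MN and 26 WSC tags at the Rab28 95-nt exon, 0 and 2 at the 89-nt exon, and 1 and 6 at the Rab22a exon. None of the 3 exons held a tetramer that NOVA is known to bind, which is TCAT or TCAC, or with a first C either CCAT or CCAC. The count covered exon bases only and not the flanking introns, where the first 20 bases after the Rab22a exon hold a TCAC.

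NOVA CLIP tags were compared between MN and WSC gene by gene. Of 21 tested members, 10 were lower in MN and 3 were higher (Rab28, Rab30 and Rab2a) at an FDR of at most 0.01 by edgeR's quasi-likelihood test. Among all 4536 genes tested, 57.2% were called, 28.1% higher and 29.1% lower. The median log2 difference, MN minus WSC, was -0.39 for the 21 Rabs and -0.02 for all genes. Of the other 33 members, 30 had tags but too few for the test and 3 had none assigned to them, which were Rab17 and the pair Rab4a and Rab4b. The tags of that pair lie within a second overlapping gene (38 MN and 226 WSC tags for Rab4a, 11 and 83 for Rab4b) and were left out. Tag values below are CPM, tag counts scaled to library size, after TMM scaling.

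Rab28 had 149 to 247 CPM in the 8 MN libraries (median 214) and 87.8, 92.0, 97.3 and 101 CPM in the WSC libraries. Every MN library was above every WSC library, and the log2 difference was 1.24 ± 0.12 (SE, edgeR adjusted p = 4.3e-10). Rab30, a Golgi Rab, had 180 to 264 CPM in MN (median 247) and 94.96, 95.3, 111 and 113 in WSC. Here too the groups did not overlap, and the log2 difference was 1.16 ± 0.11 (edgeR adjusted p = 1.2e-09). Rab2a had 145 to 242 CPM in MN (median 196) and 151, 151, 153 and 155 in WSC. Its groups overlapped, the log2 difference was 0.34 ± 0.11 (edgeR adjusted p = 0.0071), and the call was lost in 6 of 12 fits that each left out 1 library (Chat17 replicate 4, Chat6 replicate 3 or any WSC library).

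Rab3a showed the largest difference in the other direction. It had 16.5 to 110 CPM in MN (median 37.6), from 58 tags in all, and 104, 105, 118 and 128 in WSC. Apart from 1 Chat17 library, the MN libraries were below the WSC libraries, and the log2 difference was -1.46 ± 0.19 (edgeR adjusted p = 2.1e-07). Too few MN libraries reached the filter on low counts, so Rab3a entered the test only through its WSC libraries, where it was high. Without that filter its log2 difference was -1.66. Rab1, of ER to Golgi traffic, had 16.5 to 75.1 CPM in MN (median 41.4) and 68.5, 69.7, 70.7 and 93.4 in WSC, a log2 difference of -0.87 ± 0.20 (edgeR adjusted p = 0.00046). Rab5a had 0 to 135 CPM in MN (median 53.6) and 95.4, 104, 111 and 114 in WSC, a log2 difference of -0.71 ± 0.20 (edgeR adjusted p = 0.0028). For both genes the groups overlapped, and the Rab5a call was lost without Chat17 replicate 4, the deepest MN library.

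The recycling Rabs Rab14 and Rab11a were both lower in MN with no overlap between groups. Rab14 had 120 to 395 CPM in MN (median 264) and 398, 398, 404 and 406 in WSC, a log2 difference of -0.66 ± 0.11 (edgeR adjusted p = 7.2e-06). Rab11a had 164 to 307 CPM in MN (median 282) and 373, 404, 406 and 437 in WSC, a log2 difference of -0.62 ± 0.11 (edgeR adjusted p = 1.5e-05). Rab39b had 33.0 to 132 CPM in MN (median 97.5) and 138, 144, 149 and 155 in WSC, also without overlap, and a log2 difference of -0.66 ± 0.15 (edgeR adjusted p = 0.00027). Groups that do not overlap were found for 5 of the 21 Rabs, which are Rab28, Rab30, Rab14, Rab11a and Rab39b, against 29.3% of all genes tested.

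The Rab6 pair and Rab3c had the most tags of the family. In WSC, Rab3c had 14340 tags, Rab6 10939, Rab6b 10601, Rab10 6845 and Rab14 5418 (tags per gene, not per length). Rab3c had 611 to 1186 CPM in MN (median 793) and 1040, 1049, 1069 and 1071 in WSC, a log2 difference of -0.39 ± 0.11 (edgeR adjusted p = 0.0024), and its call was lost without Chat6 replicate 3. The groups of Rab3c overlapped, as did those of Rab6, Rab6b and Rab9b, which were also lower in MN. Rab6 had 373 to 856 CPM in MN (median 604) and 772, 795, 813 and 840 in WSC, a log2 difference of -0.40 ± 0.12 (edgeR adjusted p = 0.0048). Rab6b had 395 to 825 CPM in MN (median 545) and 736, 775, 778 and 874 in WSC, a log2 difference of -0.52 ± 0.11 (edgeR adjusted p = 0.00028). Rab9b had 72.7 to 176 CPM in MN (median 123) and 145, 146, 163 and 166 in WSC, a log2 difference of -0.43 ± 0.14 (edgeR adjusted p = 0.0094). The Rab6 call was lost in 7 of 12 fits without 1 library and the Rab9b call in 8 of 12, in both cases without Chat17 replicate 2 or 3, Chat6 replicate 2 or 3 or WSC replicate 1, and further for Rab6 without Chat17 replicate 4 or WSC replicate 2 and for Rab9b without Chat6 replicate 1 or 4 or WSC replicate 3. With tags at the same position counted once, the calls of Rab14 (log2 difference -0.30), Rab6b (-0.30), Rab6 (-0.17) and Rab9b (-0.34) were lost. With the Chat6 line alone against WSC, those of Rab39b, Rab1, Rab5a, Rab3c, Rab6, Rab9b and Rab2a were lost, and with Chat17 alone those of Rab3c, Rab9b and Rab2a. Rab10 did not pass the test, with 418 to 679 CPM in MN and 467 to 533 in WSC.

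**Figure D4:**
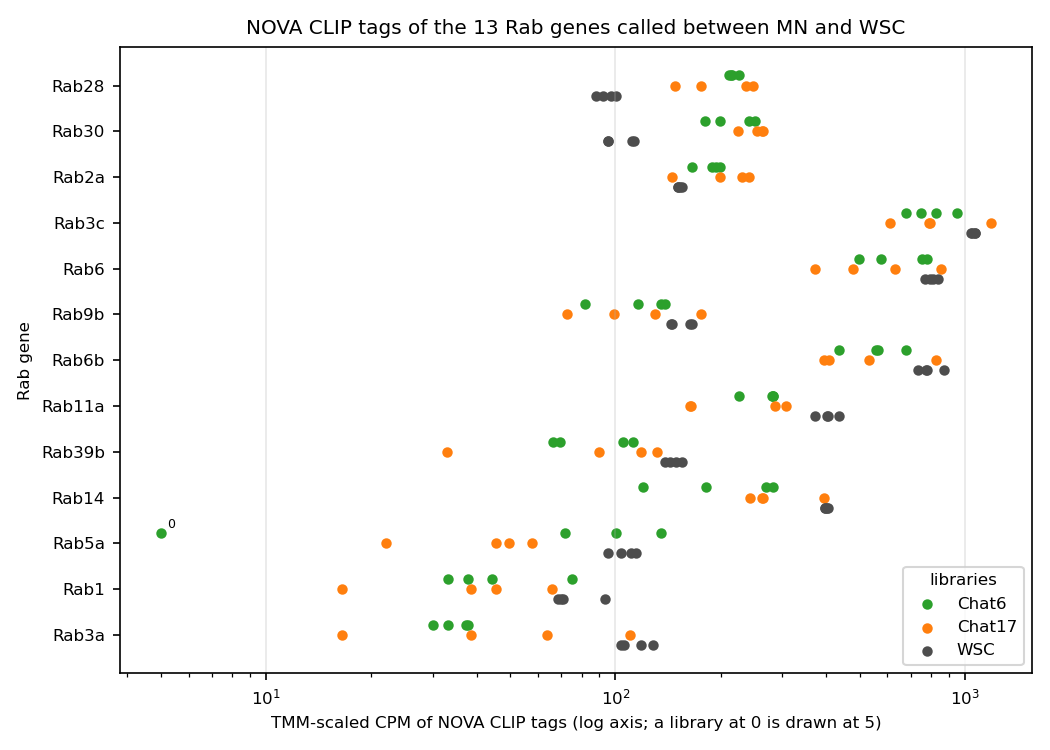
NOVA CLIP tags of the 13 Rab genes called between MN and WSC. The x axis is TMM-scaled CPM on a log scale (a library at 0 is drawn at 5), each row is a gene and each point a library of Chat6, Chat17 or WSC. For Rab28 and Rab30 all 8 MN points lie above the WSC points, and for Rab14, Rab11a and Rab39b all lie below them.

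The kind of tag moved with this result. Of the tags in genes, 33.4% to 46.4% lay in exons in the MN libraries and 60.9% to 66.2% in the WSC libraries. The 10 Rabs lower in MN had 85.7% to 99.9% of their WSC tags in exons, while Rab28 had 2.49% of its MN and 12.5% of its WSC tags in exons and Rab30 12.1% and 21.9%. The test was therefore repeated within each class of tag, and the class changed most calls.

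With tags in exons only, 15 Rabs could be tested and 5 were called, against 48.4% of all genes (24% higher and 24.4% lower in MN). Rab3a stayed lower in MN (log2 difference -0.71 ± 0.20, edgeR adjusted p = 0.0037), and it was the only one of 10 called members tested there to keep its call. Rab14, Rab11a, Rab39b, Rab6b, Rab3c, Rab6 and Rab9b then had log2 differences of 0.044 to 0.34, in the other direction and short of the threshold, and Rab2a (0.41) and Rab5a (-0.66) missed it in the same direction as before. Rab10 (0.68), Rab18 (0.90) and Rab2b (0.64) were higher in MN in exons and Rab27b, of granule exocytosis, lower (-0.94). Rab27b had only 32 exon tags over all MN libraries against 1014 in WSC. It could therefore have passed the filter on low counts through WSC alone, where it was high.

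With tags in introns only, 9 Rabs could be tested and 3 were called, against 27.0% of all genes (12.7% higher and 14.2% lower). Rab28 was still higher in MN (log2 difference 0.54 ± 0.12, edgeR adjusted p = 0.00047), as was Rab30 (0.48 ± 0.12, edgeR adjusted p = 0.0014), and Rab6b was lower (-1.01 ± 0.25). Rab6b had 49 intron tags in MN and 528 in WSC, so it too could have passed the filter through WSC alone. The calls of Rab28, Rab30 and Rab3a held in every alternative that could be fitted, with log2 differences from 0.54 to 1.29, 0.48 to 1.19 and -1.66 to -0.71. Most of these alternatives kept the filter on low counts, which Rab3a had passed above only through WSC.

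**Figure D5:**
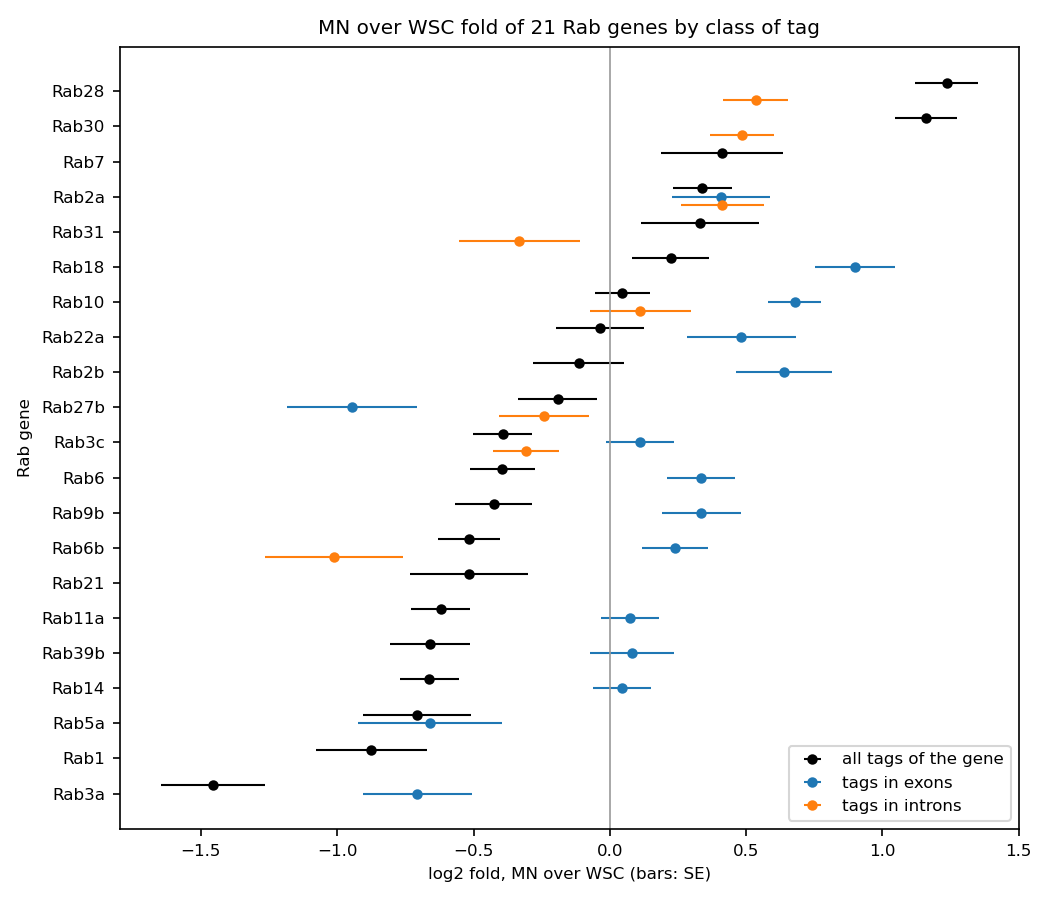
MN over WSC log2 difference of the 21 tested Rab genes by class of tag. The x axis is the log2 difference with its SE as bars, each row is a gene, black points use all tags, blue points tags in exons and orange points tags in introns. The blue points of Rab14, Rab11a, Rab39b, Rab6b, Rab3c, Rab6 and Rab9b lie right of zero while the black points lie left of it, and Rab3a lies left of zero for both.

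The most heavily tagged position of each gene was in the 3' UTR for 20 of the 21 tested Rabs in WSC, and in coding sequence for Rab3a. In MN it was in the 3' UTR for 17 and in an intron for 4, which are Rab28, Rab30, Rab31 and Rab27b. Among 4528 tested genes, the position in WSC was in the 3' UTR for 2662 and in an intron for 863. In MN these counts were 2154 and 1850, so intron positions in MN were not particular to the Rabs. For Rab28 the MN position lay 53456 nt from the WSC position and for Rab30 84580 nt, while for Rab10, Rab11a and Rab2b both groups shared the same base. The MN position of Rab28 rested on 11 overlapping tags, that of Rab30 on 12, that of Rab27b on 9 and that of Rab31 on only 3. The WSC position of Rab3a rested on 461.

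These sites are shown 5′ to 3′ on the strand of the gene (mm9), with the NOVA tetramers named above in capitals. They are the intron sites at which Rab28 and Rab30 were most tagged in MN (chr5:42069824-42069884, minus strand, and chr7:99900035-99900095, plus strand), the coding site of Rab3a in WSC (chr8:73280395-73280455, plus strand), and 2 shorter stretches of 3' UTR that were the most tagged in both groups, of Rab11a (chr9:64564370-64564398, minus strand) and Rab10 (chr12:3249621-3249649, minus strand).
Rab28 intron, MN: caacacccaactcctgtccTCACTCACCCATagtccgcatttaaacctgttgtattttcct
Rab30 intron, MN: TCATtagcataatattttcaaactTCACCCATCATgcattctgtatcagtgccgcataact
Rab3a coding exon, WSC: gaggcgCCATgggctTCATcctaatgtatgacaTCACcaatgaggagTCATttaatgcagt
Rab11a 3' UTR, MN and WSC: tctTCATCATggaagcctgTCACtgtagg
Rab10 3' UTR, MN and WSC: tcttTCATctgtgactgcttgcggactat

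The Rab28 intron window held 3 tetramers in 61 nt, the Rab30 intron window 4 and the Rab3a coding window 4. The median over all tested genes was 3 in both groups. At least 3 were held by 38.1% of the Rab windows in WSC and 52.4% in MN, against 50.3% and 52.1% for all tested genes. At least 1 tetramer on the transcribed strand was found in 95.2% of the Rab windows in WSC (20 of 21) and 90.5% in MN (19 of 21). Over 4528 tested genes the shares were 98.0% and 93.3%.

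The proteins that load, switch and read the Rabs were also expressed. All 8 genes of membrane delivery and recycling had a mean of at least 1 RPKM, among them the GDI gene Gdi2 (149 and 172 RPKM). Of 21 GEF genes measured, 16 did, led by Dennd5a, a GEF of Rab6 and Rab39 (99.5 and 105 RPKM), and Sbf1 (41.0 and 36.3), and none of the 16 differed by more than 25% between the libraries. Of 21 GAP genes, 20 did, led by Rab3gap1, a regulator of Rab3 and Rab18 (29.8 and 34.4 RPKM), and Tbc1d10b (26.4 and 25.5). Of these 20, 2 were more than 25% higher in the female library, Tbc1d7 (6.45 and 9.04 RPKM) and Tbc1d13 (9.73 and 12.5).

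Of 29 effector genes 24 had a mean of at least 1 RPKM, led by Rph3a, which binds Rab3 (236 and 210 RPKM), and the motor Myo5a (54.7 and 52.4). By more than 25%, 2 of the 24 were higher in the female library, Rabep1 (33.1 and 42.3 RPKM) and Micall2 (1.35 and 2.28), and Rilpl2 was higher in the male library (4.72 and 3.62). The Rab kinase Lrrk2 had 5.08 and 6.51 RPKM, a difference of more than 25%, and Lrrk1 0.514 and 0.416.

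In CLIP, with 57.2% of all genes called (28.1% higher and 29.1% lower in MN), the delivery genes had 1 higher in MN (Chm, which presents Rabs for prenylation, log2 difference 0.82) and 2 lower of 3 tested (among them Rabif, -0.79). Of 10 GEFs tested, 5 were higher and 3 lower, led by Dennd5a (-2.12) and Dennd5b (-0.88). Of 11 GAPs 5 were higher, among them Tbc1d1 (1.05) and Tbc1d5 (0.78), and 1 lower, Tbc1d24 (-0.97). Tbc1d24 had 9.09 to 45.1 CPM in MN and 53.0 to 61.3 in WSC. Too few of its MN libraries reached the filter on low counts, so it entered the test only through WSC, where it was high. Of 14 effectors, 5 were higher, among them the active zone genes Erc1 (0.73) and Rims2 (0.65), and 3 lower, led by Myo5a (-1.21), and the 1 kinase tested, Lrrk2, was not called. Within tags of 1 class, Dennd5a (-1.90), Dennd5b (-0.97) and Myo5a (-0.71) were still lower in exons and Tbc1d1 still higher in introns (0.68). Erc1 was tested in both classes and called in neither. Chm, Tbc1d5 and Rims2 could be tested in introns only and Rabif in exons only, and none of them was called there. Tbc1d24 could be tested in neither class.

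Markers moved between the CLIP groups as well. The 3 motoneuron markers tested were higher in MN (Chat 3.08, Chodl 2.48 and Slc5a7 2.24 on the log2 scale). The 3 astrocyte markers were lower, led by Gja1 (-1.29). Too few MN libraries reached the filter on low counts for Gja1, so it entered the test only through WSC, where it was high. In exon tags none of these 3 astrocyte markers was called (Gja1 -0.51, Aqp4 -0.021, Gfap -0.047). None of the 3 oligodendrocyte markers was called. Of 4 neuronal markers 1 was higher (Snap25, 0.62). A tag count moves with the amount of the RNA in the cells as well as with NOVA binding, these cannot be told apart from tags, and the part of cell type in the Rab differences was not tested.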

How the data were processed

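RNA-seq of 2 and NOVA CLIP of 12 spinal cord libraries were used. Per the study's methods, the authors trimmed the poly(A) RNA-seq reads to 74 nt, aligned them to mm9 with OLego and counted unambiguous reads per gene and per junction with Quantas, and aligned CLIP reads with Novoalign (versions not given in the sources used here). The submitters' processing notes name mm9 and, for 1 Chat6 library, also mm10. That library's tags shared 78.5% of 100-nt bins with WSC tags, within the range of the others, and were read as mm9. The deposited files hold read counts and RPKM per gene, read counts per cassette exon, and 1 line per unique CLIP tag, whose score column was deposited by the authors and not used.

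Here, Rab genes were taken by symbol and exons by gene identifier. Differences between RNA-seq libraries were computed on log2(RPKM + 0.1) for genes with a mean of at least 1 RPKM. Exon counts with at least 10 junction reads in each library were compared with two-sided Fisher's exact test, with Benjamini-Hochberg adjustment over 9396 exons. The inclusion counts tested were those of the authors, which held reads of the exon body besides those of both junctions. Rates and Wilson intervals used junction reads only. CLIP tags were counted per GENCODE gene by their midpoint on the same strand, leaving out tags in more than 1 protein-coding gene, filtered with filterByExpr, TMM-scaled and tested with edgeR 4.0.16 (quasi-likelihood, group as the only term, adjusted over 4536 genes). The filter keeps a gene through its level in as few as 4 libraries. Copies of transcript windows were sought with blastn 2.17.0. DESeq2 1.42.0 was an alternative.

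Biological replicates of CLIP were separate preparations per the labels. Wilson intervals cover counting error only, and PCR duplicates were not told apart in RNA-seq. The Rab genes, role lists and pathway lists were chosen with earlier results of these data known. Values were named for the 12 highest members, the 3 highest of each role, every member more than 25% higher in 1 RNA-seq library, every exon called or between 5% and 95%, the members called in CLIP and the 5 with the most WSC tags, and up to 4 genes of a pathway list. Genes named beyond this rule, such as family members given by their share, genome copies or exon length (Rab3b, Rab3d, Rab4a, Rab5b, Rab11b, Rab8a, Rab8b) and others (Rab18, Rab2b and Rab27b in exon tags, Rab31 by its tagged position, the 4 members below 1 RPKM, single examples of exons above 95% or below 5%, Tbc1d7, Tbc1d13, Rabep1, Micall2, Rilpl2, Dennd5b) were chosen after their values were seen. Some genes of the marker and pathway lists and 1 exon sequence are not reported here.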

Additional observations from a re-analysis of the deposited data

Results flagged for a closer look

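Groups of 4 CLIP libraries were searched for a library far from the others (Dixon's test) in the 14 Rab genes named from CLIP, 42 groups in all, and 3 were found, where chance flags about 1 in 20 groups. Rab14 had 395 CPM in 1 Chat17 library against 242, 264 and 264 in the others. Rab11a had 225 CPM in 1 Chat6 library against 281, 282 and 283. Rab1 had 93.4 CPM in 1 WSC library against 68.5, 69.7 and 70.7. No tested Rab gene differed between the lines Chat6 and Chat17 (lowest edgeR adjusted p = 0.98).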

How the results depend on the processing

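The count of 13 Rab genes called in CLIP (3 higher, 10 lower in MN) became 6 with the Chat6 line alone against WSC, 5 with tags in exons only and 3 with tags in introns only. It was 9 to 14 when a library was left out, 9 with 1 tag per position (without Rab14, Rab6b, Rab6 and Rab9b), 18 of 51 tested without the filter on low counts (median of all genes -0.31) and 10 to 14 under the other settings. With the replicate number as a block 11 were called, without Rab2a and Rab9b. Deviations of same-numbered MN and WSC libraries had correlations of -0.07 to 0.03 and those of same-numbered Chat6 and Chat17 libraries of 0.055 to 0.20, and 12 of 24 library comparisons were best with their own number. With exon tags only, log2 differences turned positive for Rab14 (0.044), Rab11a (0.074), Rab39b (0.082), Rab3c (0.11), Rab6b (0.24), Rab6 (0.33) and Rab9b (0.34); the cause was not tested. Rab10, not called, turned negative with Chat17 alone (-0.055), library totals (-0.036), no filter (-0.18) and without WSC replicate 3 (-0.011; -0.011 to 0.10 when 1 library was left out). The 2 exon calls became 1 from junction reads only and 1 at an FDR of 0.01, and the 5 genes past 25% became 1 at 1.5-fold. Those 5 were 6 under TMM or DESeq2 scaling, which added Rab13, 4 with a pseudocount of 1, without Rab36, and 7 with no filter on low values, which added Rab20 and Rab25. With reads of the exon body the mean rate of the Rab28 95-nt exon was 76.6% (59.2% from junctions), and from the downstream junction alone that of the 89-nt exon was 81.2% (90.4%). The rate with exon body reads sums them with both junctions without scaling, so it is not on the scale of the junction rate. Without either RNA-seq library the count of expressed Rab genes was 50 in both cases, and the mean rates ranged from 55.5% to 62.8%, 84.2% to 96.6% and 90.5% to 100% for the Rab28 95-nt, Rab28 89-nt and Rab22a exons. Depth limits the MN values, some of which rest on a single tag per library.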
